A study of Mus musculus with 15 samples.

Results

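The NF-kB set described here comprised 33 mouse genes chosen by name for their place in the NF-kB pathway: 5 transcription factor subunits, 6 inhibitors of the IkB family, 6 kinases and kinase adaptors, 6 feedback regulators, 6 cytokines, and 4 receptor and effector targets. All 33 were found by Entrez ID among the 36528 gene IDs counted in each library, and 32 of them passed the filter on low counts; Il6 did not. The libraries came from small intestine of embryos at E16.5, with 5 libraries for each of 3 genotypes, and every genotype lacked Mlkl, the effector of necroptosis. The groups carried wildtype Casp8 (called wildtype below), a Casp8 knockout (knockout), or a Casp8 C362A knockin (C362A), in which the catalytic cysteine of caspase-8 is replaced. The labels describe the C362A tissue as inflamed and the other tissue as normal. Tissue with intact Mlkl was not analysed here, and no label names a litter, a sex or a replicate, or says that libraries came from separate animals. P-values therefore measure only the spread between these libraries.

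NF-kB dimers are held in the cytoplasm by IkB proteins until an IkB kinase complex phosphorylates the inhibitor and marks it for degradation. The freed dimers enter the nucleus and bind kappaB sites, and their targets include cytokines and several of the pathway's own inhibitors, which limit the response. In the gut the pathway responds to tumour necrosis factor, interleukin-1 and microbial ligands in epithelial and immune cells, and caspase-8 acts downstream of some of the same receptors.

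None of the 32 members tested was called in C362A against wildtype at an adjusted p under 0.05 (edgeR quasi-likelihood test, Benjamini-Hochberg over 18370 genes), where 0.0817% of all genes were called. At an unadjusted p under 0.05 stood 11 members, 9 of them with a positive log2 fold change and 2 with a negative one. For positive changes that share was 28.1%, against 8.08% of all genes, and for negative changes it was 6.25%, against 7.8%. The members were chosen with earlier results of these data known, so shares set against all genes, here and below, may partly reflect that choice. The 5 C362A libraries lay above all 5 wildtype libraries for 3 members, Nfkbia, Nfkbie and Csf1 (9.38%, against 0.86% of all genes), and lay below them for 0 members (0.299% of all genes). Nfkbia and Nfkb2 did so against the 5 knockout libraries. The promoters of these 4 genes are printed first, since the clearest separations between groups in the set were theirs.

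The sequences are the 250 bases before an annotated transcription start, from RefSeq on GRCm38.p6, read 5′ to 3′ on the gene's own strand. Capitals mark stretches that match the kappaB consensus of 10 letters on either strand, with overlapping matches merged. For Nfkbia, which encodes IkB-alpha, the stretch lies on the minus strand at chr12:55492648-55492897, and the match begins 29 bases before the start. For Nfkbie, which encodes IkB-epsilon, it lies on the plus strand at chr17:45555450-45555699, with the match 106 bases before the start. For Nfkb2, which encodes the p100 precursor of p52, the most upstream of 3 annotated windows is shown, on the plus strand at chr19:46304487-46304736. It holds matches that begin 39 and 11 bases before the start. For Csf1, which encodes macrophage colony-stimulating factor, it lies on the minus strand at chr3:107760470-107760719, with the match 154 bases before the start.

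Nfkbia: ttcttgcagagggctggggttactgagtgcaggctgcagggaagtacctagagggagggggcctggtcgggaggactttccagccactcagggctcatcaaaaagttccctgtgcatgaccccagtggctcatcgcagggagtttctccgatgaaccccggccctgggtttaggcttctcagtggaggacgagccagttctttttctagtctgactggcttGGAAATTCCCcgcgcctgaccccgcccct
Nfkbie: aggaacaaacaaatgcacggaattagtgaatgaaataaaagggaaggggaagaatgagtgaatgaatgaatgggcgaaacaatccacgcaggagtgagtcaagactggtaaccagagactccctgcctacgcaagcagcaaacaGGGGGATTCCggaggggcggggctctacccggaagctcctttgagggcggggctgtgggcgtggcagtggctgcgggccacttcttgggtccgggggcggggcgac
Nfkb2: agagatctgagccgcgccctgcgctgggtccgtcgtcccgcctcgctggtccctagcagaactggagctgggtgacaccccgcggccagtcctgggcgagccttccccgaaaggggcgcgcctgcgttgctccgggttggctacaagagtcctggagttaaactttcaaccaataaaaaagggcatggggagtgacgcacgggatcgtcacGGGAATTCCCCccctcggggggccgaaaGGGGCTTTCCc
Csf1: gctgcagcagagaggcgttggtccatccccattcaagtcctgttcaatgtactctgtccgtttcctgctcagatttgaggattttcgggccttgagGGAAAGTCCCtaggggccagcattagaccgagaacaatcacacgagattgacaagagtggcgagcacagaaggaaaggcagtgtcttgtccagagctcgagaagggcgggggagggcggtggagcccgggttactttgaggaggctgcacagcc

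Windows of 300 bases, which reach 50 bases past the start, were given for 26 of the 33 members. The kappaB consensus was found on either strand in the windows of 11 of these 26 genes (42.3%), against 5.14% of 27018 genes with a window. A looser pattern of 3 G, 5 bases of any kind and 2 C, of which the consensus is a stricter form, was found for 19 of 26 (73.1%), against 53.5%. The members had been picked as NF-kB genes, many of them for known regulation by the factor, so these shares describe the choice of genes. A match is not evidence of binding, and a window without one says only that the letters are not there.

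Total counts lay between 31896399 and 38532127 per library. Casp8 stood at 70.1 ± 5.97 CPM (counts per 1e+06 counts, scaled by TMM factors; mean ± SD, n = 5) in wildtype, 14.4 ± 1.65 in knockout and 69.9 ± 3.41 in C362A, a log2 fold change of −2.28 in knockout against wildtype (SE 0.08; edgeR adjusted p = 2.55e-11). The C362A substitution itself cannot be seen in counts. Mlkl stood at 0.506 ± 0.179, 0.521 ± 0.119 and 0.389 ± 0.261 CPM in the same order (n = 5 each). All 10 epithelial markers, among them Epcam and Vil1, were detected. Within their groups, wildtype replicate 4 and C362A replicate 5 stood farthest from the other libraries, with a chi-square per gene of up to 139.05 and 103.97 against another library of the genotype. Leaving out C362A replicate 5 raised the number of genes called in C362A against wildtype from 15 to 1807, and leaving out wildtype replicate 4 gave 10. Values without either library are given beside the members they move most or whose call they change.

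Per unit of length, on the authors' size-factor-adjusted RPKM scale, the members spanned levels from 25.5 ± 1.15 for Sod2, the mitochondrial superoxide dismutase, to 0.292 ± 0.0648 for Rel in wildtype (SD, n = 5), leaving out Il6. Tnip1, Nfkb1, Rela and Nfkbia followed Sod2 at 20.5, 20.2, 20.1 and 19.2, and neighbours among these 4 differed by less than their SDs. The catalytic kinase subunits Chuk (IKK-alpha) and Ikbkb (IKK-beta) stood at 16.2 and 10.7. Most cytokines were near the lower end of this scale, with Lif at 1.18, Il1a at 0.642 and Il1b at 0.438, while Csf1 stood at 6.62. Transcripts of the pathway's subunits and kinases were thus present in every group. Those of its cytokines other than Csf1 were lower than those of most subunits and kinases in all 3. The roles were not cleanly split: in wildtype Rel lay below Lif, Il1a and Il1b, and Map3k8, at 1.13, was level with Lif. Il6 had at most 6 counts in a library (0.16 CPM) and 0 counts in 4 libraries, where a count of 0 allows up to 3 counts, or 0.0843 to 0.0934 CPM in those libraries. No fold change is given for it.

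**Figure D1:**
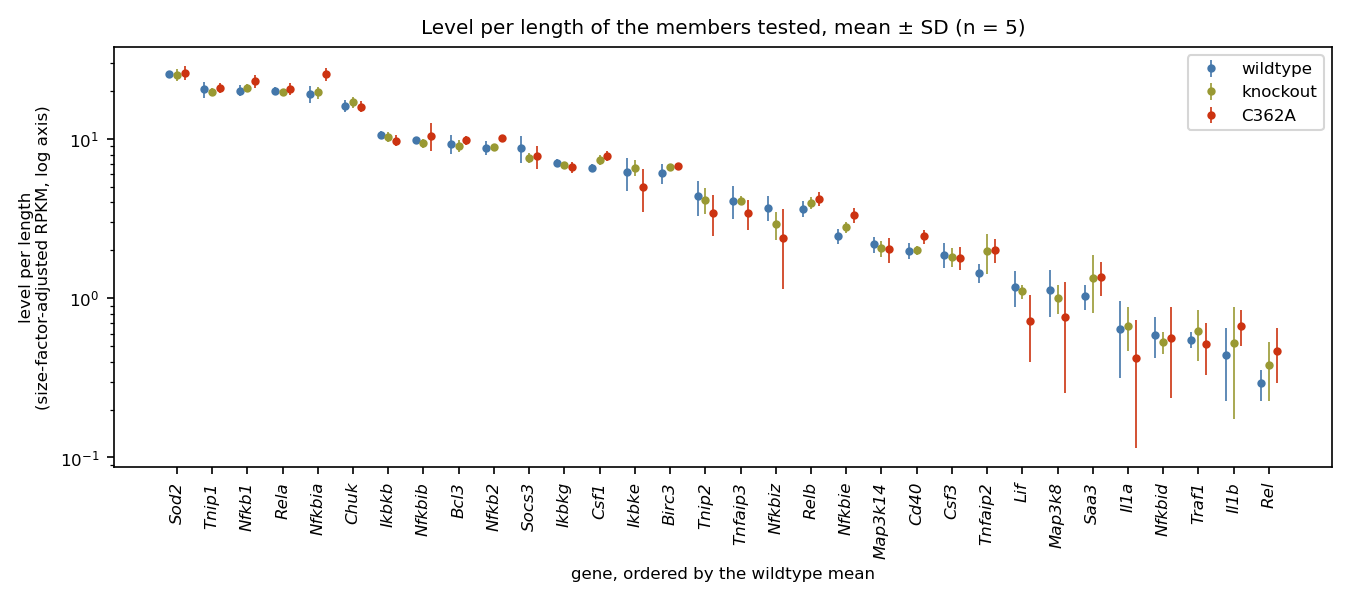
Level per length of the 32 members tested, as size-factor-adjusted RPKM on a log axis, ordered by the wildtype mean. Points are means and bars the SD over 5 libraries in each of the 3 genotypes. Sod2 is highest and Rel lowest in wildtype, and the points of the 3 genotypes lie close together for most members.

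All 5 subunits had a positive log2 fold change in C362A against wildtype (median 0.20), and 4 of them, all but Rela, had an unadjusted p under 0.05, as did 8.08% of all genes in that direction. Rela, whose product p65 carries the transactivation domain of the commonest dimer, had a log2 fold change of 0.04 (SE 0.07) and turned negative without C362A replicate 1; the other 4 kept their sign under every setting tried. Nfkb2 was at 39.2, 41.5, 43.8, 50.2 and 40.9 CPM in wildtype replicates 1 to 5, at 41.8, 45.1, 42.7, 44.5 and 43.3 in knockout and at 50.9, 47.5, 48.2, 50.05 and 50.5 in C362A. The C362A libraries lay above every knockout library, while wildtype replicate 4 reached into their range. Its log2 fold change was 0.20 (SE 0.07) against wildtype, with an adjusted p of 0.285, and 0.18 (SE 0.07) against knockout, with an adjusted p of 0.317 (edgeR, Benjamini-Hochberg). Nfkb1, which encodes p105 and p50, averaged 85.85 ± 6.97 CPM in wildtype, 89.2 ± 4.55 in knockout and 98.4 ± 9.32 in C362A (SD, n = 5). In this gene 3 of the 5 C362A libraries exceeded every wildtype library, and its log2 fold change was 0.20 (SE 0.07; edgeR adjusted p = 0.285), or 0.25 with an adjusted p of 0.0412 without C362A replicate 5. Rel, the c-Rel gene of lymphoid and myeloid cells, was low, between 0.53 and 1.85 CPM over the 15 libraries. Its log2 fold change of 0.69 (SE 0.31) rests on few reads. Relb, partner of p52 in the alternative pathway, had 0.21 (SE 0.10).

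The gene for IkB-alpha, at chr12:55489409-55492647 (GRCm38), gave the smallest p among the members. Nfkbia was at 35.1, 30.6, 34.5, 28.1 and 26.9 CPM in wildtype replicates 1 to 5, at 34.2, 30.3, 31.9, 34.5 and 28 in knockout and at 42.7, 37.5, 46.5, 37.5 and 42.2 in C362A. Every C362A library lay above every library of the other groups, and those 2 groups overlapped. The log2 fold change of Nfkbia was 0.41 (SE 0.09) against wildtype, with an edgeR adjusted p of 0.200, and 0.38 (SE 0.09) against knockout, with 0.317. Without C362A replicate 5 it was 0.40 and 0.37, with edgeR adjusted p of 0.0274 and 0.0466. In knockout against wildtype it was 0.03 (SE 0.09).

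Nfkbie, at chr17:45555700-45563169, encodes the IkB that binds c-Rel and p65 dimers. Its levels were 5.67, 6.09, 5.95, 7.42 and 6.02 CPM in wildtype replicates 1 to 5, 7.05, 6.34, 7.08, 6.98 and 7.89 in knockout and 7.6, 9.33, 9.29, 8.86 and 7.43 in C362A. All C362A libraries lay above all wildtype libraries, by a narrow margin over wildtype replicate 4, and overlapped with knockout replicate 5. In the fit Nfkbie had a log2 fold change of 0.45 (SE 0.11) against wildtype and 0.27 (SE 0.11) against knockout, with edgeR adjusted p of 0.246 and 0.317. With C362A replicate 5 left out it was 0.49 and 0.31, with edgeR adjusted p of 0.0201 and 0.0827. DESeq2 called both genes in C362A against wildtype, Nfkbia with an adjusted p of 0.018 and Nfkbie with 0.0291, where it called 0.267% of genes higher and 0.0397% lower. It called no other member in any comparison.

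The other inhibitors did not share that pattern. Nfkbiz encodes the atypical nuclear IkB-zeta, which is needed for a subset of secondary NF-kB targets. It was at 15.9, 15.6, 10.4, 14.7 and 17.3 CPM in wildtype replicates 1 to 5, at 13.3, 12.4, 13.4, 7.64 and 11.3 in knockout and at 7.72, 11.9, 6.49, 4.43 and 17.1 in C362A. C362A replicate 5 was level with the highest wildtype library, and C362A replicates 1, 3 and 4 lay below all wildtype libraries. The log2 fold change was −0.64 (SE 0.29) against wildtype, with an edgeR adjusted p of 0.305, and −0.95 without C362A replicate 5, with 0.0321. Over all fits with a library left out it lay between −0.95 and −0.45, with an edgeR adjusted p of up to 0.654. Nfkbib (IkB-beta), Bcl3 and Nfkbid had log2 fold changes of 0.09, 0.08 and −0.08, each within its SE.

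None of the 6 kinases had a positive log2 fold change in C362A against wildtype or in C362A against knockout, but 1 of the 6 did in each when libraries were scaled by their totals alone (Chuk and Map3k14), and the signs of Chuk, Map3k14 and Ikbkg also turned in some fits with a library left out. The median was −0.11 against wildtype, and Chuk was nearest to 0, at −0.01 (SE 0.08). Ikbke, which encodes the IKK-related kinase IKK-epsilon, was at 23, 26.6, 32.3, 40.9 and 26.6 CPM in wildtype replicates 1 to 5, at 27.8, 36.4, 30.3, 29.9 and 35.4 in knockout and at 17.4, 23.6, 21.5, 21.9 and 37 in C362A. Among the C362A libraries, 4 lay below all knockout libraries, and replicate 5 lay above them. For Ikbke the log2 fold change was −0.30 (SE 0.18) against wildtype and −0.40 (SE 0.18) against knockout, with edgeR adjusted p of 0.397 and 0.347. Without C362A replicate 5 these were −0.50 and −0.60, with edgeR adjusted p of 0.0419 and 0.0416, while without wildtype replicate 4 the change against wildtype was −0.16. Map3k8 encodes TPL2, a kinase held by p105. It was at 3.53, 2.96, 3.72, 5.59 and 2.45 CPM in wildtype replicates 1 to 5, at 2.95, 4.05, 3.82, 2.37 and 3.1 in knockout and at 1.74, 2.11, 1.56, 1.5 and 5.39 in C362A. Here again C362A replicates 1 to 4 lay below all wildtype and all knockout libraries, and replicate 5 stood among the highest of the 15. With all 15 libraries the log2 fold change was −0.56 (SE 0.32) against wildtype and −0.40 (SE 0.32) against knockout, with edgeR adjusted p of 0.376 and 0.564. Without C362A replicate 5 it was −1.07 and −0.91, with edgeR adjusted p of 0.0194 and 0.0418, and without wildtype replicate 4 it was −0.37 against wildtype. Ikbkb, Ikbkg (NEMO, the regulatory subunit) and Map3k14 (NIK, the kinase of the alternative pathway) had −0.12, −0.09 and −0.10, with SEs of 0.07, 0.07 and 0.13.

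The share of all genes at an unadjusted p under 0.05 was 8.08% for positive changes and 7.8% for negative ones in C362A against wildtype. In knockout against wildtype it was 1.2% and 1.23%, and in C362A against knockout 6.49% and 7.41%. Near these shares, the 6 feedback regulators gave no member with an unadjusted p under 0.05 in any comparison. The smallest p was that of Birc3, which encodes the ubiquitin ligase cIAP2, at 16.1, 19, 20.1, 22.7 and 17.3 CPM in wildtype replicates 1 to 5, 20.2, 20.6, 22.1, 20.9 and 21.3 in knockout and 19.3, 21, 21, 22.1 and 22.3 in C362A. The 3 groups overlapped, and wildtype spread widest. Its log2 fold change was 0.15 (SE 0.09) in C362A against wildtype, with an edgeR adjusted p of 0.368, or 0.10 without wildtype replicate 1, and 0.01 (SE 0.09) against knockout. Tnfaip3 (the deubiquitinase A20) had −0.26 (SE 0.16) against wildtype, and −0.14 without C362A replicate 1 or wildtype replicate 4. Its partner Tnip2 (ABIN2) had −0.34 (SE 0.20), and −0.53 without C362A replicate 5 (edgeR adjusted p = 0.0577) or −0.21 without wildtype replicate 4. Tnip1 (ABIN1) had 0.03 (SE 0.08). Socs3, an inhibitor of cytokine receptor signalling, averaged 32.4 CPM in wildtype, 28.25 in knockout and 29.0 in C362A. Traf1, an adaptor of the TNF receptor family, was at 2.58 CPM or less in every library.

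Cytokine genes differed among themselves. Csf1, at chr3:107741048-107760469, was at 29.8, 31, 31.5, 30.8 and 27.6 CPM in wildtype replicates 1 to 5, at 30.3, 35, 31.9, 34.9 and 35.9 in knockout and at 33.4, 38.5, 35.5, 38.1 and 32.6 in C362A. Each C362A library lay above each wildtype library, while the knockout libraries overlapped both. The log2 fold change was 0.24 (SE 0.07) in C362A against wildtype, with an edgeR adjusted p of 0.285, and 0.16 (SE 0.07) in knockout against wildtype. The first was 0.27 without C362A replicate 5, with an edgeR adjusted p of 0.0363. Lif encodes a cytokine of the interleukin-6 family. It was at 5.52, 8.47, 7.74, 11.1 and 7.27 CPM in wildtype replicates 1 to 5, at 8.12, 8.4, 6.66, 6.76 and 7.71 in knockout and at 3.86, 5.49, 3.55, 3.13 and 8.54 in C362A. C362A replicate 5 lay above 4 of the wildtype libraries, and replicates 1 to 4 lay below all libraries of the other groups. The margin was narrow for C362A replicate 2, at 5.49 against 5.52 in wildtype replicate 1. Its log2 fold change was −0.71 (SE 0.24) against wildtype and −0.62 (SE 0.24) against knockout, with edgeR adjusted p of 0.285 and 0.317. Without C362A replicate 5 these were −0.998 and −0.91, with edgeR adjusted p of 0.0181 and 0.0383. Over all fits with a library left out, the change of Lif against wildtype lay between −0.998 and −0.57. The inflammatory cytokines stayed low: Il1b was between 0.218 and 2.36 CPM over the 15 libraries, with a log2 fold change of 0.61 (SE 0.43) in C362A against wildtype. Il1a was at 1.07, 3.21, 2.77, 5.23 and 2.58 CPM in wildtype replicates 1 to 5, at 2.87, 3.18, 4.14, 1.65 and 3.77 in knockout and at 0.903, 1.46, 1.77, 1.22 and 4.5 in C362A. C362A replicate 5 was again apart from the other 4. The log2 fold change against wildtype was −0.59 (SE 0.43), with −1.14 without that library (edgeR adjusted p = 0.0557) and −0.30 without wildtype replicate 4. Csf3 (granulocyte colony-stimulating factor) had −0.06 (SE 0.14).

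Among receptor and effector targets, all 4 had a positive log2 fold change in C362A against wildtype (median 0.35), and Sod2, at 0.03, turned negative without C362A replicate 1. Tnfaip2, a gene induced by tumour necrosis factor, was at 5.44, 7.68, 6.34, 7.35 and 6.29 CPM in wildtype replicates 1 to 5, at 7.86, 8.87, 9.02, 6.42 and 13.3 in knockout and at 7.94, 9.22, 9.8, 11.6 and 7.64 in C362A. Knockout replicate 5 was the highest of the 15, and the C362A libraries reached from just under the highest wildtype library upwards. The log2 fold change was 0.48 (SE 0.17) in C362A against wildtype and 0.46 (SE 0.17) in knockout against wildtype, with edgeR adjusted p of 0.285 and 1, and 0.02 (SE 0.17) between the mutants. Without knockout replicate 5 the change in knockout against wildtype was 0.28 (SE 0.15). Cd40, the costimulatory receptor of antigen-presenting cells, averaged 3.87 ± 0.44 CPM in wildtype, 3.91 ± 0.248 in knockout and 4.77 ± 0.455 in C362A (SD, n = 5). The log2 fold change of Cd40 was 0.30 (SE 0.12) against wildtype and 0.29 (SE 0.12) against knockout, with edgeR adjusted p of 0.285 and 0.321. Saa3, an acute-phase gene, was at 1.15 CPM or less in every library.

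**Figure D2:**
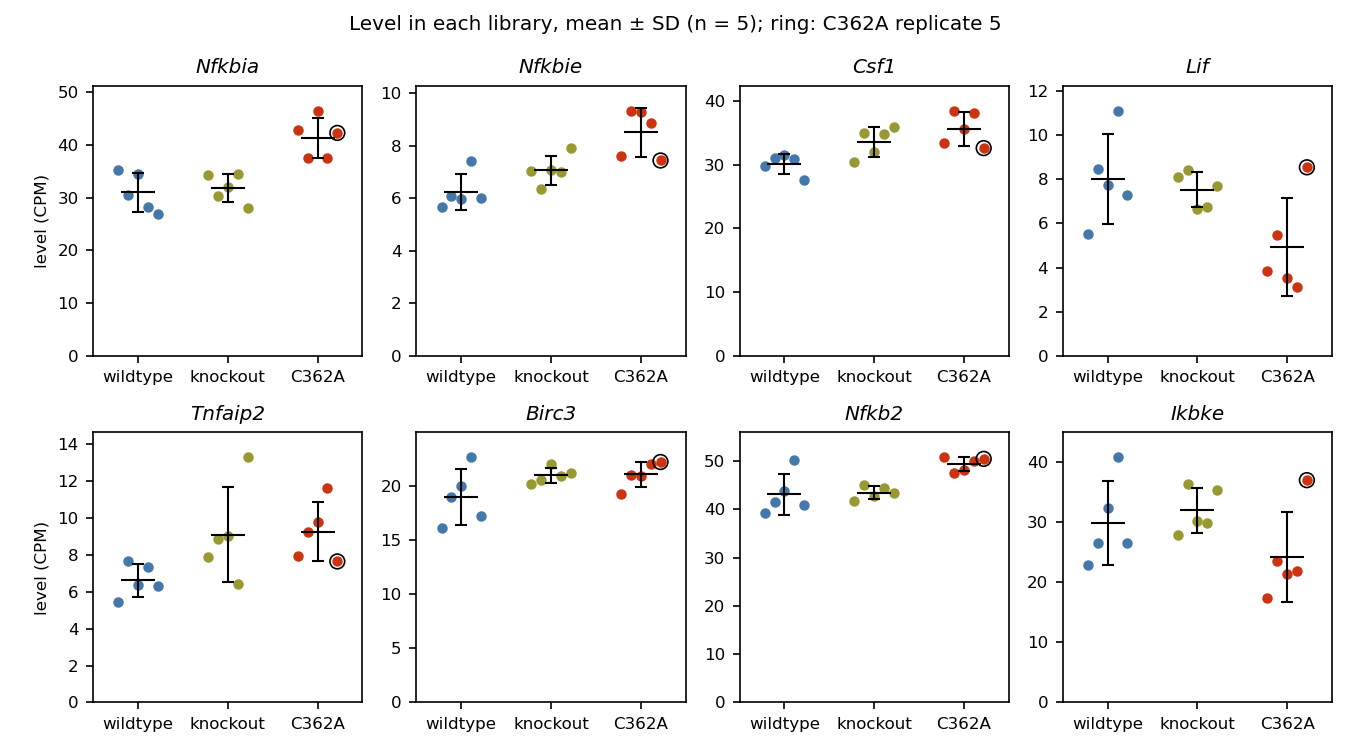
CPM of the 8 members named by rule in each library, one panel per gene with its own axis from 0. Points are the 5 libraries of each genotype, the line and bar give the mean and SD, and the ring marks C362A replicate 5. In the Nfkbia panel the C362A points, from 37.5 to 46.5, all lie above those of wildtype and knockout; in the Lif and Ikbke panels 1 C362A point stands above the other 4.

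Over all 32 members tested, 17 had a positive log2 fold change in C362A against wildtype (all genes 51.4%), with a median of 0.03 (all genes 0.01) and a range from −0.71 to 0.69. In knockout against wildtype, 0 members were called (0.0381% of all genes), 2 had a positive change at an unadjusted p under 0.05, Tnfaip2 and Csf1 (6.25%, against 1.2% of genes), and 0 a negative one (1.23%). The groups did not overlap for 0 members in the positive and 0 in the negative direction (0.37% and 0.332% of all genes). The median was 0.01, and 17 of 32 were positive (all genes 48.2%). In C362A against knockout, 0 members were called (0.0109% of all genes). Nfkbia, Nfkb2, Nfkbie and Cd40 were the 4 with a positive change at an unadjusted p under 0.05 (12.5%, against 6.49%), and Lif and Ikbke the 2 with a negative one (6.25%, against 7.41%). The groups did not overlap for 2 members in the positive direction (6.25%, against 1.11%) and for 0 in the negative one (1.74%). The median was 0.04, and 19 of 32 were positive (all genes 53.2%). DESeq2 called 0 members in knockout against wildtype (0.06% of genes called higher, 0.0109% lower) and 0 in C362A against knockout (0.112% higher, 0.0473% lower). The 3 comparisons share libraries, so their values stand side by side and are not independent of each other.

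**Figure D3:**
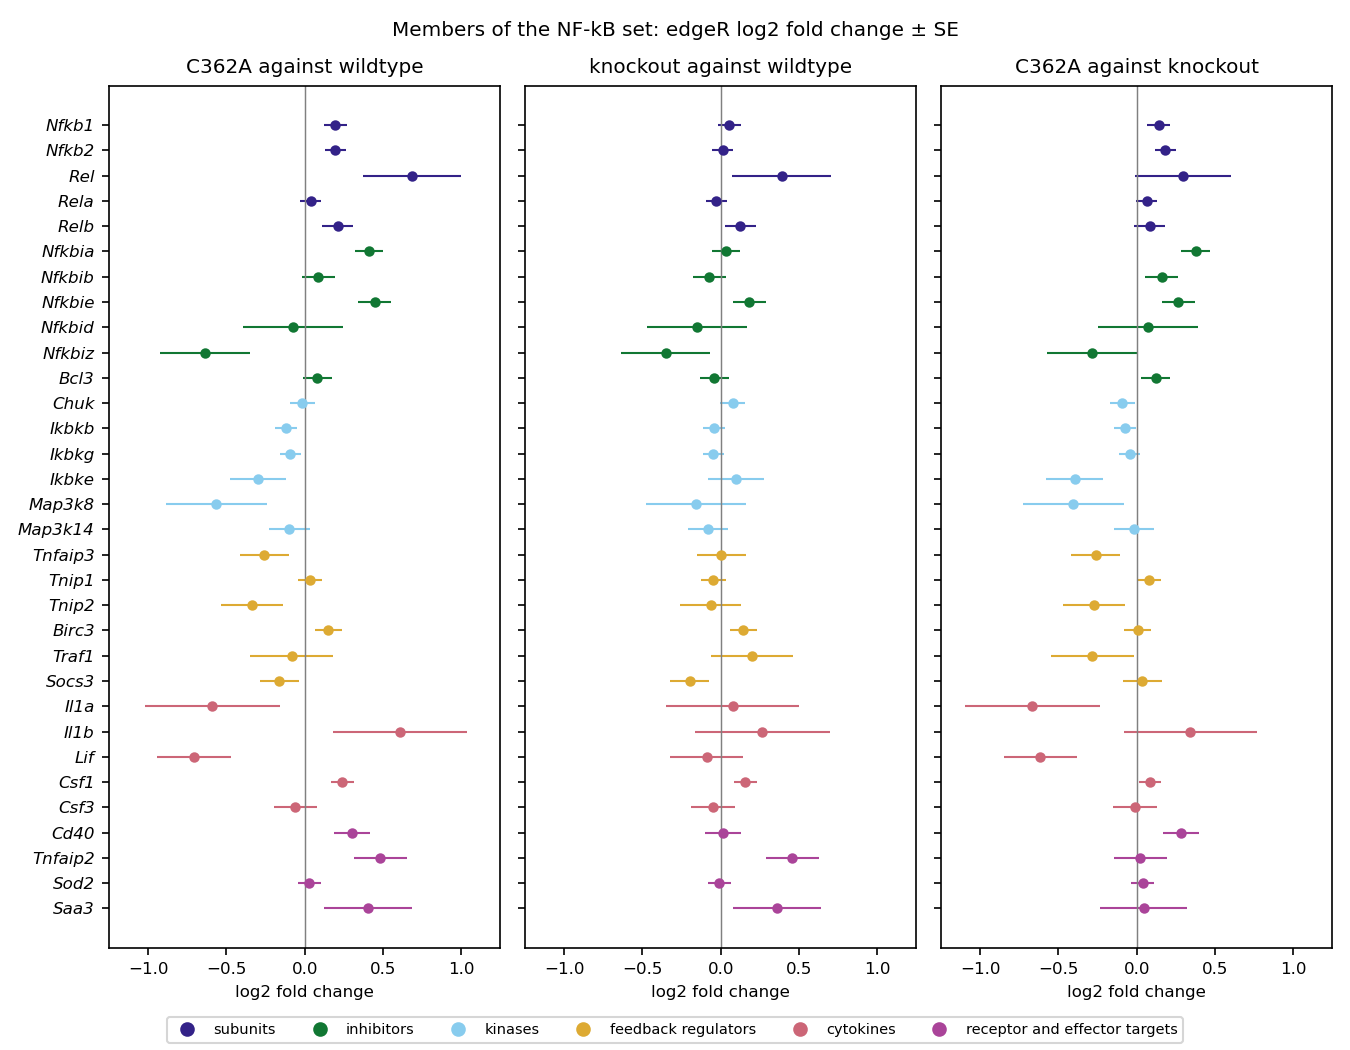
Log2 fold change of each of the 32 members in the 3 comparisons, with bars of 1 SE, grouped by role; the grey line marks 0. Nfkbia and Nfkbie stand to the right of 0 in both C362A comparisons, Lif and Ikbke to the left, and no member passed the adjusted threshold.

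C362A replicate 5 was the highest library of its group for 15 of the 32 members, among them Map3k8, Ikbke, Lif, Nfkbiz, Il1a and Tnip2. It was the lowest of its group for 7, among them Nfkb1, Nfkbib and Sod2. The share of all genes that peaked in that library was not computed. The coefficient of variation in C362A with and without it was 67.2% and 15.7% for Map3k8, 73.5% and 27.6% for Il1a, and 9.29% and 10.7% for Nfkbia. Without that library, 8 members passed in C362A against wildtype. Nfkbia, Nfkbie, Nfkb1 and Csf1 were called higher, as were 4.29% of all genes, and Lif, Map3k8, Nfkbiz and Ikbke lower, as were 5.47% of all genes. The members' shares, 12.5% in each direction, are thus to be read against calls over 1807 genes. In C362A against knockout without it, Nfkbia passed in the positive direction (1.78% of genes called higher), and Lif, Map3k8 and Ikbke in the negative one (2.57% called lower). The other 14 fits with a library left out called 0 members in both comparisons, and 0 members were called in knockout against wildtype in all 15. Without C362A replicate 5 that comparison called 0.027% of all genes higher and 0.0108% lower.

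Wildtype replicate 4 was the highest of its group for 17 members, and 11 members, among them Ikbke, Map3k8, Tnip2, Lif and Il1a, peaked in both libraries. No share over all genes was computed for these counts. The summed level of the 10 epithelial markers was 14300 CPM in wildtype replicate 4, against 7613 to 11780 in the other wildtype libraries, and 10330 in C362A replicate 5, against 6999 to 7615 in the other C362A libraries. Knockout libraries had 9054 to 10810. Other marker sums set the same libraries apart. In wildtype replicate 4 and C362A replicate 5 the lymphoid sum was the highest of its group, at 49.9 and 38.7 CPM. The fibroblast sum was the lowest of its group in both, at 5259 and 6333 CPM. All 10 epithelial markers had a negative log2 fold change in C362A against wildtype (median −0.13). None of them was called, with Fabp2 at −1.02 and Epcam at −0.04. In wildtype, Lgals4, Fabp1 and Fabp2 weighed most in the summed level. Fabp1 averaged 2497 CPM in wildtype and 1688 in C362A, and Fabp2 1674 and 824, while Epcam averaged 878 and 855.5. Wildtype replicates 1 and 5, at 7613 and 7658, were near C362A replicates 1 to 4. The sum is therefore no measure of the epithelial share alone, and its part in the members' values was not tested. In bulk tissue, fewer cells of a type and less RNA per cell cannot be told apart.

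**Figure D4:**
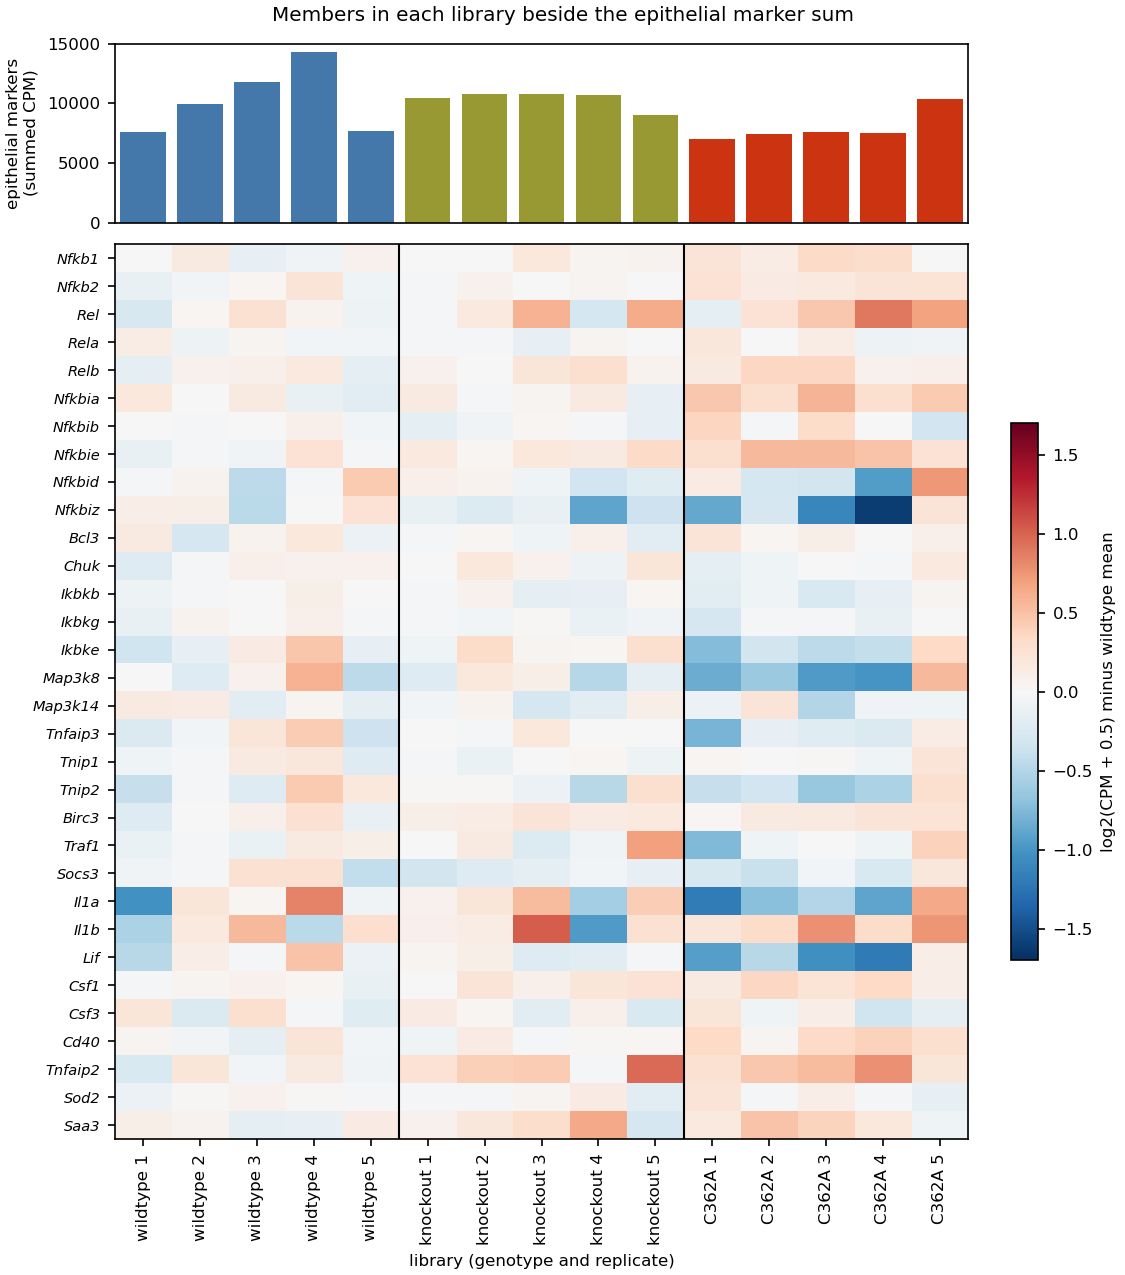
Each member's level in each of the 15 libraries as log2(CPM + 0.5) minus the wildtype mean (colour, red above and blue below), with the summed CPM of the 10 epithelial markers per library as bars from 0. C362A replicate 5 and wildtype replicate 4, where Map3k8, Lif and Ikbke are high, have the highest epithelial sums of their groups, 10330 and 14300 CPM. Both also have the highest lymphoid and the lowest fibroblast sums of their groups, which are not drawn.

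Markers of immune cells were also summed. The macrophage and monocyte markers (12 genes) ranged from 220 to 329 CPM in wildtype, 248.6 to 326 in knockout and 274 to 352 in C362A, and 11 of 12 had a positive log2 fold change in C362A against wildtype. Adgre1, the F4/80 antigen, rose by 0.75 (edgeR adjusted p = 0.0361). Neutrophil markers (10 genes) ranged from 8.10 to 37.3 CPM in wildtype, 12.0 to 63.6 in knockout and 10.1 to 85.2 in C362A, with 9 of 9 tested positive and 0 called. Fibroblast and smooth muscle markers, 8 each, were all positive, with medians of 0.23 and 0.20 and 0 called. Of the 6 lymphoid markers tested, 2 were positive, and Il2rg was called (edgeR adjusted p = 0.0201). Mast cell markers were positive in 6 of 6 tested, endothelial ones in 6 of 8 and erythroid ones in 2 of 6, none of them called. No marker of these lists was at 0 in all libraries, and their part in the members' values was not tested.

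Sample ID numbers in the labels fall into 2 runs of consecutive numbers, with 2 and 3 libraries of each genotype, which no label calls a batch. Differences were therefore also taken within each run, as C362A minus wildtype in mean log2(CPM + 0.5). Nfkbia differed by 0.191 in the first run and 0.555 in the second, Nfkbie by 0.485 and 0.375, and Csf1 by 0.205 and 0.257. Lif differed by 0.063 and −1.221, Nfkbiz by 0.14 and −1.315, Ikbke by 0.115 and −0.595, and Il1a by 0.466 and −1.194. For the first 3 genes every C362A library lay above every wildtype library, so a positive difference in both runs was fixed in advance. The negative differences of the last 4 were present in the second run alone. That run lacks C362A replicate 5 and holds wildtype replicate 4, and the part of either library was not tested. Map3k8 differed by −0.072 and −0.915, negative in both runs. Over the 32 members, 15 had the same sign in both runs, and the share over all genes was not computed.

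Other genes of the pathway were read from 3 further lists. Of 29 receptors and adaptors tested, 18 had a positive log2 fold change in C362A against wildtype and 0 were called in any comparison. Of 17 genes for ubiquitin and TAK1 steps, 9 were positive and 0 were called. Over all genes, 51.4% were positive in C362A against wildtype. The shares called were 0.0817% there, 0.0381% in knockout against wildtype and 0.0109% in C362A against knockout. Among 19 other NF-kB targets tested, 1 was called: Cxcl10, a chemokine gene induced by interferons as well as by NF-kB, rose from 0.734 ± 0.125 CPM in wildtype to 2.0 ± 0.55 in knockout and 4.29 ± 0.751 in C362A (SD, n = 5). On the log2 scale Cxcl10 differed by 2.54 in C362A against wildtype and 1.45 in knockout against wildtype, with edgeR adjusted p of 7.96e-06 and 0.0143. Against knockout, C362A had 1.1 (edgeR adjusted p = 0.11). Vcam1, an adhesion receptor of activated endothelium, had 0.83 (edgeR adjusted p = 0.0583) in C362A against wildtype. No other gene of that list passed.

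Reads were unstranded, so those of a member and of a gene overlapping it cannot be told apart. By RefSeq annotation Nfkb2 overlaps the long noncoding RNA gene 4833438C02Rik and the end of Psd, Csf1 lies inside Gm40121, Ikbke overlaps Gm28913 and Gm51644, and Ikbkg overlaps G6pdx. For Nfkbia, Nfkbie, Lif, Map3k8, Nfkbiz and Tnfaip2 no overlapping gene was annotated.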

How the data were processed

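Each deposited file gives counts, which per the file headers are reads with a unique alignment inside a gene model, and RPKM, which the authors scaled by library size factors, per the file headers. Per the labels' protocols, polyA libraries (TruSeq v2, no strand) were read single-end; alignment was by GSNAP to GRCm38, per the submitters' processing notes, with version, options and annotation not given in the sources used here. RefSeq on GRCm38.p6 named 31049 IDs and GENCODE 78, and 5401 unnamed IDs stayed in the tests. Replicate numbers follow accession order within a genotype and pair no libraries. RPKM and counts differed only by a factor per library and a length per gene.

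The counts entered 1 fit of all 15 libraries in edgeR 4.0.16 (R 4.3.3) with the quasi-likelihood test, robust estimates, TMM scaling and filterByExpr (minimum count 10, minimum total 15). Genes with a Benjamini-Hochberg adjusted p under 0.05 over 18370 genes were called. The fit was also run on simulated counts, which held no outlying library, so that run does not bear on the effect of C362A replicate 5. SEs are the absolute log2 fold change over the square root of F. Promoters were searched on both strands. Depth was 31896399 to 38532127 counts per library, so members under 1 CPM rest on few reads. Libraries of a genotype differed by far more than sampling noise, and each was counted as its own sample.

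The members, gene lists and marker lists were chosen with earlier results of these data known. Members named in full were the 4 with the smallest p in each comparison and the one with the smallest p in each role; the others given by library, Map3k8, Nfkbiz and Il1a, were chosen after their values were seen. Alternatives were other scalings (RLE, library totals, TMM without the 20 most abundant genes), DESeq2 1.42.0, limma-voom and limma (3.58.1) on log2(RPKM + 1) and log2(RPKM + 0.1), no filter or 1 CPM in 5 libraries, only the groups compared, robust estimates off, a block for runs of sample ID numbers, a threshold of 0.01, and each library left out in turn.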

Additional observations from a re-analysis of the deposited data

Results flagged for a closer look

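In 6 of 99 sets of 5 libraries (each member in each genotype), the highest or lowest library stood farther from its neighbour than Dixon's 95% limit allows; chance gives about 1 in 20 such sets. C362A replicate 5 was the highest of its group for Map3k8, at 5.39 CPM with the next library at 2.11, for Tnip2, at 10.5 CPM with the next at 6.79, and for Il1a, at 4.495 CPM with the next at 1.77. Wildtype replicate 4 was the highest for Nfkbie, at 7.42 CPM with the next at 6.09, and for Nfkbib, at 22.9 CPM with the next at 21.4. Knockout replicate 3 was the highest for Tnfaip3, at 22.6 CPM with the next at 19.9. Beside these values stand the marker sums of C362A replicate 5 and wildtype replicate 4. Their epithelial and lymphoid sums were the highest of their groups and their fibroblast sums the lowest. The part of these sums was not tested.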

How the results depend on the processing

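In C362A against wildtype, 15 genes were called, against 54 by DESeq2, 7 at an adjusted p under 0.01, and 7 to 1807 with a library left out; 1807 was without C362A replicate 5, and 7 without C362A replicate 2 or 3 or wildtype replicate 5. Members called were 2 by DESeq2, 0 to 8 with a library left out, and 0 under the other settings tried. In knockout against wildtype the 7 genes became 13 by DESeq2, 1 with only the 2 groups compared, 1 at an adjusted p under 0.01, and as few as 1 (without wildtype replicate 3) with a library left out; members stayed at 0. In C362A against knockout the 2 genes became 27 by DESeq2, 5 by limma on log2(RPKM + 1), 4 on log2(RPKM + 0.1), 4 with only the 2 groups compared, and up to 805 without C362A replicate 5, where 4 members were called against 0. The cause of these differences was not tested. The members' log2 fold changes kept their sign under every setting tried for 25 of 32 in C362A against wildtype, 23 in C362A against knockout and 16 in knockout against wildtype. Over the fits with a library left out, Nfkbia in C362A against wildtype ranged from 0.36 to 0.46 (edgeR adjusted p 0.0274 to 0.515) and Nfkbie from 0.41 to 0.51 (0.0201 to 0.545). No paired analysis was possible because the labels give no replicate numbers. A block for the runs of sample ID numbers called 0 members in all 3 comparisons, as did the main fit. The main fit called only 0.0817% of all genes in C362A against wildtype. In knockout against wildtype it called 0.0381%, and in C362A against knockout 0.0109%. A count of 0 among 32 members therefore says little about the set.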
